A study of Mus musculus with 6 samples.

Results

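The genes described here encode the subunits of the transcription factor NF-kB and the proteins that hold it in check. The 10 genes were chosen by symbol: the subunit genes Nfkb1, Nfkb2, Rel, Rela and Relb, the inhibitor genes Nfkbia, Nfkbib, Nfkbie and Nfkbiz, and Tnfaip3. For each, the brightest transcript cluster named with that symbol alone was used. A transcript cluster is a set of array probes summarised as 1 value. A gene can have more than 1 cluster, and 33206 of all 65956 clusters carry no gene symbol. Of the 10 genes, 9 had such a cluster, 1 each, out of 30142 genes named on the array, and all 9 passed the filter on dim clusters. Nfkb1 was not analysed here.

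The samples were HSCs (hematopoietic stem cells, which renew the blood) sorted by flow cytometry, after lineage-negative enrichment, from leg and hip bone marrow of mice aged 6 to 8 weeks. One group of 3 arrays came from wild-type mice. The other group of 3 arrays came from CDK19-/- mice, which lack CDK19, a kinase of the Mediator complex that joins transcription factors to RNA polymerase II. The labels name no treatment, strain, sex or Cre driver, nor the part of Cdk19 that was deleted, and they do not say how many animals an array holds. The arrays are called biological replicates, and p-values measure the spread between them. The series' title concerns HSC proliferation, p53 and the cell cycle inhibitor p21, and does not name NF-kB.

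NF-kB works as pairs of Rel family proteins. In resting cells most pairs are kept in the cytoplasm by inhibitor of kB (IkB) proteins. Signals from receptors for tumour necrosis factor, interleukin-1 and bacterial products activate the IkB kinase (IKK), which marks IkB for destruction, and the freed pairs enter the nucleus. Among the genes they switch on are those of their own inhibitors, so that the response limits itself. In HSCs the pathway is known for its part in survival and in the response to inflammation.

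In HSCs without CDK19, all 9 measured genes rose, by 1.31-fold to 1.79-fold. Their log2 changes (knockout minus wild type) ran from 0.39 to 0.84 with a median of 0.63, and adjusted p-values ran from 2.9e-04 to 0.029 (limma, Benjamini-Hochberg over all clusters tested). Over all 39543 clusters tested, 2.96% were called higher, 4.84% were called lower and the median change was 0.00. Among 11621 clusters at least as bright as the dimmest of the 9 genes, 6.21% were called higher and 10.1% lower. Every knockout array lay above every wild-type array for each of the 9 genes, which held for 11.6% of all clusters tested and 16.9% of those at least as bright. SDs over 3 arrays ran from 0.01 to 0.13 on the log2 scale. Fewer cells of a type and less RNA per cell cannot be told apart in such bulk samples. Levels are values made by the authors and taken here as log2, and a level of 1 cluster is not comparable with that of another.

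**Figure D1:**
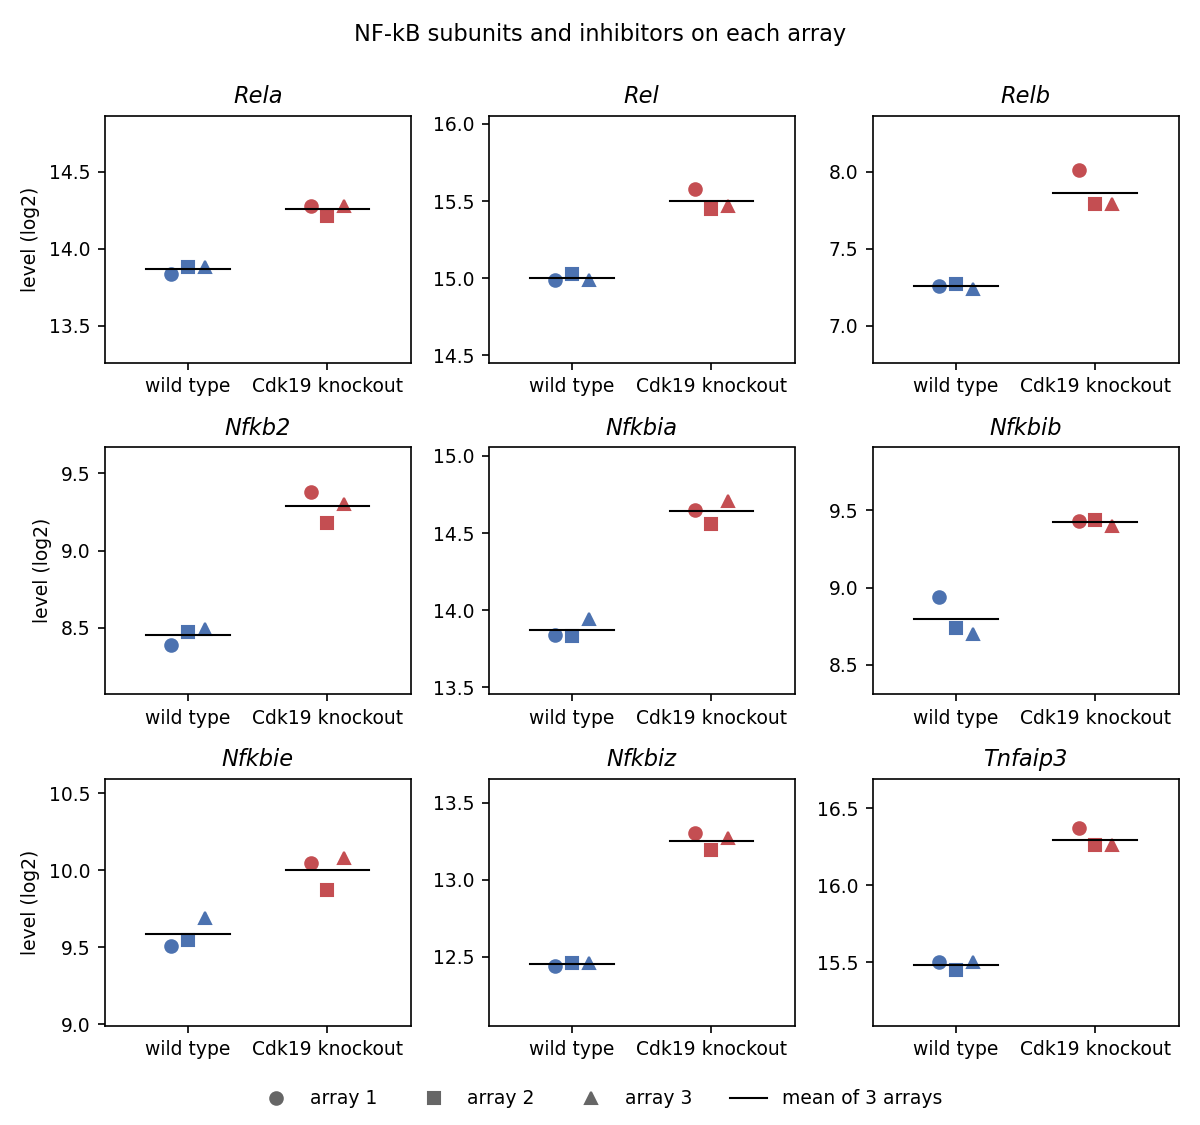
Level on the log2 scale (vertical axis) of each of the 9 measured genes on 3 wild-type arrays (blue) and 3 Cdk19 knockout arrays (red). Marker shapes give the array number, lines are means of 3 arrays, and each panel spans the same number of log2 units. The groups do not overlap in any panel, and the gap between them is smallest for Nfkbie (0.18) and largest for Tnfaip3 (0.76).

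Rela encodes the subunit p65, which carries a strong activation domain and forms the best known pair with the product of Nfkb1. Its levels were 13.84, 13.88 and 13.88 on the wild-type arrays and 14.28, 14.21 and 14.28 on the knockout arrays. The replicates were tight, and the log2 change of 0.39 (SE 0.04, adjusted p = 0.0033 by limma with Benjamini-Hochberg) was the smallest of the 9.

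Rel encodes c-Rel, a subunit best known from lymphocytes. It stood at 14.99, 15.03 and 14.99 in wild type and at 15.58, 15.45 and 15.47 in the knockout. Knockout array 1 was the highest, and the lowest knockout array was 0.42 above the highest wild-type array. The log2 change was 0.50 (SE 0.05, adjusted p = 0.0022 by limma with Benjamini-Hochberg).

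Relb and Nfkb2 encode the pair of the non-canonical arm, in which the Nfkb2 precursor is itself cut to the mature subunit. Relb was at 7.26, 7.27 and 7.24 in wild type and at 8.01, 7.79 and 7.79 in the knockout. Knockout array 1 stood 0.22 above the other knockout arrays, which were equal. The log2 change of Relb was 0.61 (SE 0.08, adjusted p = 0.0071 by limma with Benjamini-Hochberg), and 0.53 without knockout array 1 (adjusted p = 0.014). Nfkb2 was at 8.39, 8.47 and 8.49 in wild type and at 9.38, 9.18 and 9.30 in the knockout. Its log2 change of 0.84 (SE 0.07, adjusted p = 0.0017 by limma with Benjamini-Hochberg) was the largest of the 9 genes and ranked 113 among 12751 protein-coding genes by size of rise.

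Nfkbia encodes IkB alpha, the inhibitor that is destroyed first and made anew fastest, and the textbook example of NF-kB feedback. Its levels were 13.84, 13.83 and 13.94 in wild type and 14.65, 14.56 and 14.71 in the knockout. All knockout arrays were at least 0.62 above all wild-type arrays, for a log2 change of 0.77 (SE 0.06, adjusted p = 9.7e-04 by limma with Benjamini-Hochberg).

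Nfkbib encodes IkB beta, a slower inhibitor that holds some NF-kB through long responses. It was at 8.94, 8.74 and 8.70 in wild type, where array 1 stood apart, and at 9.43, 9.44 and 9.40 in the knockout. The log2 change was 0.63 (SE 0.08, adjusted p = 0.0058 by limma with Benjamini-Hochberg), and 0.70 without wild-type array 1.

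Nfkbie encodes IkB epsilon, another NF-kB-induced inhibitor. It gave 9.51, 9.55 and 9.69 in wild type and 10.05, 9.87 and 10.08 in the knockout. Its groups came closest, 0.18 apart, and its log2 change of 0.42 (SE 0.08, adjusted p = 0.029 by limma with Benjamini-Hochberg) had the highest adjusted p of the 9. Leaving out any wild-type array ended the call (adjusted p of 0.098, 0.11 and 0.058 for arrays 1, 2 and 3), as did leaving out knockout array 1 (0.086) or 3 (0.085), but not 2 (0.030). Setting every array to the same median ended it as well (0.060).

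Nfkbiz encodes IkB zeta, which acts in the nucleus and, unlike the cytoplasmic inhibitors, can help switch on a second wave of genes. Its wild-type levels, 12.44, 12.46 and 12.46, were the tightest of any group (SD 0.01). The knockout arrays gave 13.30, 13.19 and 13.27, for a log2 change of 0.80 (SE 0.05, adjusted p = 4.3e-04 by limma with Benjamini-Hochberg).

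Tnfaip3 encodes A20, an enzyme that edits ubiquitin chains on signalling proteins upstream of IKK and so ends the signal. It was at 15.50, 15.45 and 15.50 in wild type and at 16.37, 16.26 and 16.26 in the knockout. With a log2 change of 0.81 (SE 0.04) it had the smallest p of the 9 genes (limma, Benjamini-Hochberg adjusted p = 2.9e-04) and ranked 71 by p among all clusters tested.

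**Figure D2:**
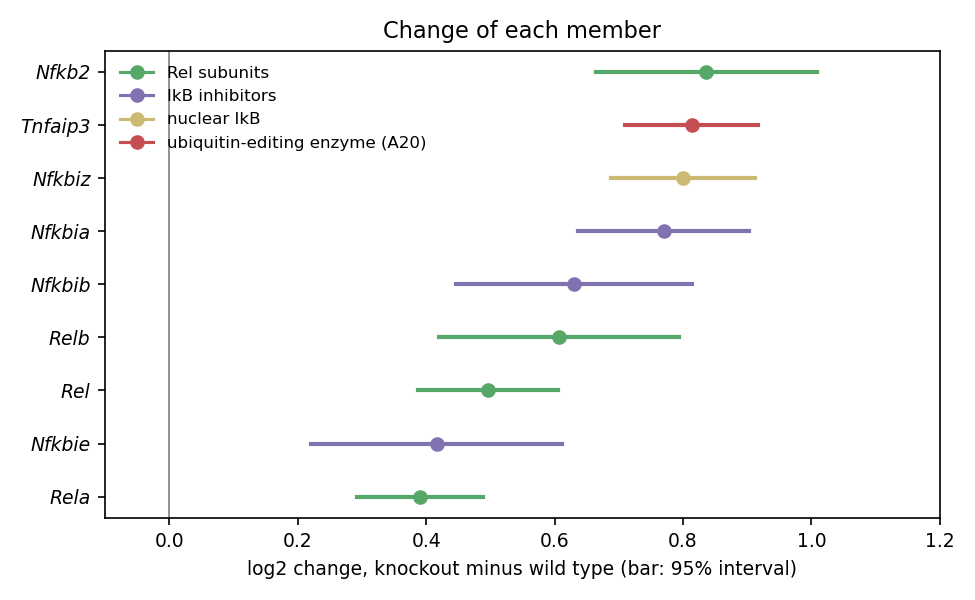
Log2 change of each of the 9 genes, knockout minus wild type (points), with its 95% interval from the moderated fit (bars), coloured by role. The intervals run from 0.29 to 0.49 for Rela at the bottom and from 0.67 to 1.01 for Nfkb2 at the top, and none reaches 0.

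The measured size of the rise varied among the 9 genes. Whether their clusters report a change equally was not tested. The 95% interval of Rela, 0.29 to 0.49, lay wholly below those of Nfkbia (0.64 to 0.90), Nfkbiz (0.69 to 0.91), Tnfaip3 (0.71 to 0.92) and Nfkb2 (0.67 to 1.01). To compare changes within arrays, the log2 level of 1 gene was subtracted from that of another on each array. Rela, the first reference, had the smallest change of the 9, so the other genes shift upward against it by that choice. Nfkbia minus Rela was 0.00, -0.05 and 0.06 on the wild-type arrays and 0.37, 0.35 and 0.43 on the knockout arrays. The change of Nfkbia was thus larger by 0.38 (SE 0.04), with no overlap between groups. The same difference from Rela was 0.41 (SE 0.01) for Nfkbiz, 0.42 (SE 0.04) for Tnfaip3 and 0.45 (SE 0.04) for Nfkb2, also without overlap. Nfkbie and Rela overlapped, with a difference of 0.03 (SE 0.06). So did Tnfaip3 and Nfkbia (0.04, SE 0.06), Nfkbiz and Nfkbia (0.03, SE 0.04) and Nfkb2 and Nfkbia (0.07, SE 0.05).

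Among all 36 pairs of the 9 genes, the groups did not overlap in 20. Each gene enters 8 of these pairs, so they are not separate, and pairs of other genes were not compared. The gene with the larger change came first in each pair, and overlap was judged in that direction. Of the 20 pairs of an inhibitor and a subunit, the groups did not overlap in 10. In 9 of these 10 the inhibitor had the larger change. In the other, Nfkb2 and Nfkbie, the subunit did, by 0.42 (SE 0.05). With 3 arrays against 3, the exact two-sided permutation test cannot go below p = 0.1, which adjusted over the 36 pairs is 0.18, so no pair passed. The sizes did not sort by role: Nfkb2, a subunit gene, changed most, and Nfkbie, an inhibitor gene, changed nearly as little as Rela.

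**Figure D3:**
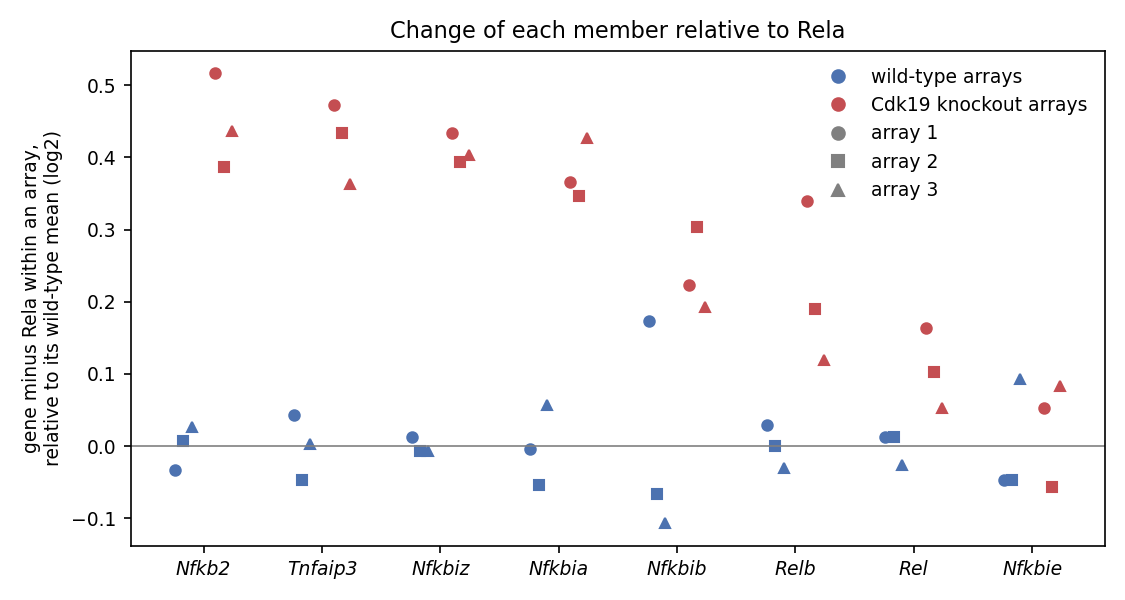
Level of each gene minus that of Rela on the same array, relative to the wild-type mean of that difference (vertical axis, log2), for wild-type (blue) and knockout arrays (red). Marker shapes give the array number. Knockout arrays lie above all wild-type arrays for 7 of 8 genes and overlap them for Nfkbie. Rela had the smallest change of all members, so the upward direction follows from the choice of reference.

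Within the knockout group the 9 genes tended to share an order. Knockout array 2 was the lowest of the 3 for 6 genes and knockout array 1 the highest for 5, ties left out. Over all clusters tested, array 2 was the lowest knockout array in 35.2% and array 1 the highest in 31.1%. The median deviation of the 9 genes from the knockout mean was 0.05 on array 1, -0.06 on array 2 and 0.01 on array 3, small beside the median change of 0.63.

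The DNA just before the start sites of these genes was searched for the NF-kB consensus motif, which these proteins bind. Several of these genes are known NF-kB targets, so matches were foreseeable without these data. Their part in the rise was not tested. The motif, 10 bases long, opens with guanines and ends with cytosines. It was written GGGRNNYYCC, where R is A or G, Y is C or T and N is any base. Both strands of the 250 bases before each RefSeq start were searched (GRCm38.p6), and overlapping matches were merged. Of the 9 measured genes, 7 had a promoter entry, and 5 of these 7 held at least 1 match: Nfkbia, Tnfaip3, Nfkb2, Rel and Nfkbie. Windows of that length held a match for 8.23% of 27025 genes with an entry and for 9.71% of 11535 tested genes. No match was found before Rela or Nfkbib, and Relb and Nfkbiz had no entry. For each gene with a match, 1 window is shown 5′ to 3′ on the gene's strand, with matches in capitals, so that the place and number of matches can be compared.
Nfkbia: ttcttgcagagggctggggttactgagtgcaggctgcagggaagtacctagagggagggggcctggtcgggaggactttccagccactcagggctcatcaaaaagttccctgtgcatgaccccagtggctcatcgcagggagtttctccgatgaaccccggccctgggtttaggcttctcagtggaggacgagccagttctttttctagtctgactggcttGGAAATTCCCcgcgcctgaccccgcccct
Tnfaip3: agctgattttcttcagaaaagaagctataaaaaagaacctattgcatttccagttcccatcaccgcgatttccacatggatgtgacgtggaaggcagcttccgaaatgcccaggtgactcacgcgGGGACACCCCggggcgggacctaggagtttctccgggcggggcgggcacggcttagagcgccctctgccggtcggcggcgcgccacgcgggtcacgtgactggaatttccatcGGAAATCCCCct
Nfkb2: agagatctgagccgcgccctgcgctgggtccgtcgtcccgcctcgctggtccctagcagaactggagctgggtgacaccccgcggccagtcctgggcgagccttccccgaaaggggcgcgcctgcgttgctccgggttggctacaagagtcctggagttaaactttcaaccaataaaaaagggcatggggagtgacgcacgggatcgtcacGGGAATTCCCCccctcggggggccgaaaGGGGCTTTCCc
Rel: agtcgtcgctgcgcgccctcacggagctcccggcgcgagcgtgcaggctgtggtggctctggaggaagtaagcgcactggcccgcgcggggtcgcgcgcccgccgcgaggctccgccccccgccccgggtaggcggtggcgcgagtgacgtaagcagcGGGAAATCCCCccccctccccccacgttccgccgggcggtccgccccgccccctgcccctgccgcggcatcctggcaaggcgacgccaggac
Nfkbie: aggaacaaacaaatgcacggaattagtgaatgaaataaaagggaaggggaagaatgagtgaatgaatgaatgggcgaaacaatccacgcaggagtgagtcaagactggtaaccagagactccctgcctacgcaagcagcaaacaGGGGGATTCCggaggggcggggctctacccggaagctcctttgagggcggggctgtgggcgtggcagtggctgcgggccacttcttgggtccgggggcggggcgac

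The Nfkbia window is chr12:55492648-55492897, minus strand, with its match 29 to 20 bases before the start. On the opposite strand it reads GGGAATTTCC. The Tnfaip3 window is chr10:19015411-19015660, minus strand, with stretches at 125 to 116 and at 12 to 3 bases. A second Tnfaip3 start had no match. The Nfkb2 window is chr19:46304487-46304736, plus strand, with stretches at 39 to 29 and at 11 to 2 bases. It is the window of the first of 3 Nfkb2 starts, and each of the other windows held 1 match. The Rel window is chr11:23770970-23771219, minus strand, with a stretch at 92 to 82 bases. That of Nfkbie is chr17:45555450-45555699, plus strand, with its match at 106 to 97 bases. Of the genes with a match, log2 changes ran from 0.42 (Nfkbie) to 0.84 (Nfkb2), and those without were at 0.39 (Rela) and 0.63 (Nfkbib). A match describes the sequence and does not show that a site is used.

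Around the 9 genes, the pathway was followed from ligands to targets in lists that hold none of them. These lists were chosen with earlier results of these data known, so their counts are not independent of the data. Of 106 genes listed, 86 were tested. Leaving out Il1a, which had only knockout levels above the filter limit, 22 of 85 rose, 8 fell and 55 did not pass, with a median log2 change of 0.08. Over all clusters tested, 2.96% were called higher and 4.84% lower. Among those at least as bright as the dimmest member, the shares were 6.21% and 10.1%. The 30 called genes had groups that did not overlap, but they were picked by their small p-values, so this adds no separate support. Over all clusters tested, called or not, knockout arrays were all above wild type in 11.6% and all below in 14.9%, which is not a like comparison. Leaving out wild-type array 1, 2 or 3 brought the count that rose, with Il1a (23 on all arrays), to 14 each time, and leaving out knockout array 1 or 3 brought it to 16. Called in every alternative fit that tested them were 18 of the 31 called genes, Il1a included.

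Of 4 ligand genes tested on levels above the filter limit in both groups, 3 rose and 1 fell (median 0.46). Tnf, encoding tumour necrosis factor, was at 11.08, 11.21 and 11.03 in wild type and 11.53, 11.57 and 11.75 in the knockout, a log2 change of 0.51 (SE 0.08, adjusted p = 0.013 by limma with Benjamini-Hochberg). Il1b, encoding interleukin-1 beta, rose by 0.63, from 4.56, 4.54 and 4.57 to 5.19, 5.20 and 5.16, close to the limit of 4.09 below which clusters were not tested. Il1a rose by 0.88, but its wild-type arrays (3.73, 3.57 and 3.84) were under that limit, so it entered the test through its knockout values and is left out of the counts given. Tnfsf11, encoding the ligand RANKL, rose by 0.41. Ltb, encoding lymphotoxin beta, which feeds the non-canonical arm, fell by 0.49, from 7.75, 7.76 and 7.73 to 7.25, 7.18 and 7.33. Lta, Tnfsf13b and Cd40lg were too dim to test. Tnf no longer passed when wild-type array 1 (adjusted p = 0.055) or 3 (0.062) was left out. For Tnfsf11 the same held of wild-type arrays 1 (0.093), 2 (0.063) and 3 (0.11) and of knockout arrays 1 (0.091) and 2 (0.090).

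Of 8 tested receptor genes, 1 rose, 1 fell and 6 did not pass (median 0.10). Tnfrsf1b, encoding the second receptor for tumour necrosis factor, rose by 0.36 (SE 0.07, adjusted p = 0.036 by limma with Benjamini-Hochberg). Tlr4, the sensor of bacterial lipopolysaccharide, fell by 0.35 (SE 0.08, adjusted p = 0.043 by limma with Benjamini-Hochberg). Neither call was secure: that of Tlr4 was lost in each run that left out 1 array (adjusted p 0.054 to 0.15). That of Tnfrsf1b was lost in 5 of 6 such runs, all but that without knockout array 2 (0.044 to 0.12), and with a common median (0.089).

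Of 17 tested genes for adaptors and kinases upstream of IKK, 5 rose, 1 fell and 11 did not pass (median 0.10). Malt1 moved most, from 10.66, 10.68 and 10.70 to 12.23, 12.11 and 12.00, a log2 change of 1.43 (SE 0.07, adjusted p = 2.2e-04 by limma with Benjamini-Hochberg). It encodes the protease of the complex with BCL10 that carries antigen receptor signals to IKK, and A20 and RelB are among its known substrates. Traf1, an adaptor gene that NF-kB itself induces, rose by 0.83, from 6.15, 6.04 and 6.06 to 6.96, 6.80 and 6.97. Irak2, a kinase gene of the interleukin-1 and Toll-like receptor pathway, rose by 0.81, from 6.12, 6.18 and 6.27 to 7.09, 6.86 and 7.04. Traf6, the ubiquitin ligase next in that pathway, rose by 0.29, and Tab1, encoding a partner of the kinase TAK1, fell by 0.35. Traf6 and Tab1 lost their calls in every run that left out 1 array (adjusted p 0.054 to 0.12 and 0.068 to 0.15) and with a common median (0.081 and 0.054).

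The next list held genes of the IKK complex and the linear ubiquitin assembly complex, which build and relay the signal to IkB. It also held Ikbke and Tbk1, which encode IKK-related kinases outside both complexes, with log2 changes of -0.08 and -0.14. Limma called none of the 7 tested genes, a count of 0, and 0 had an unadjusted p under 0.05. All 7 log2 changes were below 0, from -0.14 to -0.03 (median -0.11), and for 6 of the 7 every knockout array was below every wild-type array, as in 14.9% of all clusters tested and 22.3% of those at least as bright as the dimmest member. Rnf31, a subunit of the ubiquitin ligase, had a log2 change of -0.13 (95% interval -0.27 to 0.01), and Ikbkg, the regulatory subunit of IKK, one of -0.13 (-0.28 to 0.02). Ikbkb, chosen after its value was seen, encodes the main IkB kinase and had one of -0.11 (-0.27 to 0.05). These intervals do not reach the change of Rela. Chuk was not analysed here.

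Of 5 other genes for IkB-like or NF-kB-binding proteins, 2 rose and 3 did not pass (median 0.10). Bcl3, a nuclear IkB-like coactivator that pairs with the products of Nfkb1 and Nfkb2, rose by 0.92 (SE 0.09, adjusted p = 0.0029 by limma with Benjamini-Hochberg). It went from 7.60, 7.52 and 7.51 to 8.64, 8.33 and 8.41, with knockout array 1 the highest, as for Relb and Nfkb2. Nkrf, encoding a repressor that acts at NF-kB target promoters, rose by 0.38. Nkrf did not pass when wild-type arrays 1 (adjusted p = 0.14), 2 (0.15) and 3 (0.092) or knockout arrays 1 (0.10) and 2 (0.11) were left out in turn, nor with a common median (0.089).

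Of 15 tested genes for other feedback and restraint proteins, 2 rose, 2 fell and 11 did not pass (median 0.05). Zc3h12a, encoding the RNase Regnase-1 that degrades inflammatory mRNAs, rose by 0.60 (SE 0.05, adjusted p = 0.0018 by limma with Benjamini-Hochberg), from 11.19, 11.15 and 11.23 to 11.84, 11.74 and 11.78. Tnip1, encoding a binding partner of A20, rose by 0.35, and Itch, encoding a ubiquitin ligase that works with A20, fell by 0.44, from 9.39, 9.32 and 9.37 to 8.90, 8.91 and 8.96. Usp18 fell by 1.06 (SE 0.07, adjusted p = 8.5e-04 by limma with Benjamini-Hochberg) and is best known for restraining interferon signalling. Tnip1 failed when wild-type arrays 1 (adjusted p = 0.13), 2 (0.12) and 3 (0.15) or knockout arrays 1 (0.11) and 3 (0.12) were left out in turn, and with a common median (0.10).

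Of 29 tested target genes of NF-kB, 9 rose, 3 fell and 17 did not pass (median 0.09). Cflar, a gene of chromosome 1 that did not pass, was counted through a cluster on chromosome 3. Another Cflar cluster was not called either (log2 change -0.20, adjusted p = 0.18 by limma with Benjamini-Hochberg). Cd83, among those that rose, was counted through an unmapped cluster. The neutrophil chemokine gene Cxcl2 rose by 2.14, from 11.49, 11.57 and 11.65 to 13.65, 13.57 and 13.92. Ptgs2, whose product COX-2 makes prostaglandins, went up by 1.82, the stress gene Gadd45b by 1.70 and Icam1, encoding an adhesion molecule, by 0.73. By limma with Benjamini-Hochberg, the adjusted p-values of these genes lay between 7.5e-05 (Ptgs2) and 0.0029 (Icam1). Of the genes that fell, Ccl3 had a log2 change of -1.51 and Ccl4 one of -1.51. Cd69, encoding an early activation antigen, fell by 0.50, from 16.93, 16.88 and 16.97 to 16.46, 16.48 and 16.34 (limma, Benjamini-Hochberg adjusted p = 0.0025). Called genes of this list thus moved both ways, while all 9 members moved one way. Several members are known targets too, and NF-kB activity was not tested. Il6, Csf2, Nos2, Sele, Mmp9, Cxcl1, Tnfrsf9 and Bcl2a1a were too dim to test.

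**Figure D4:**
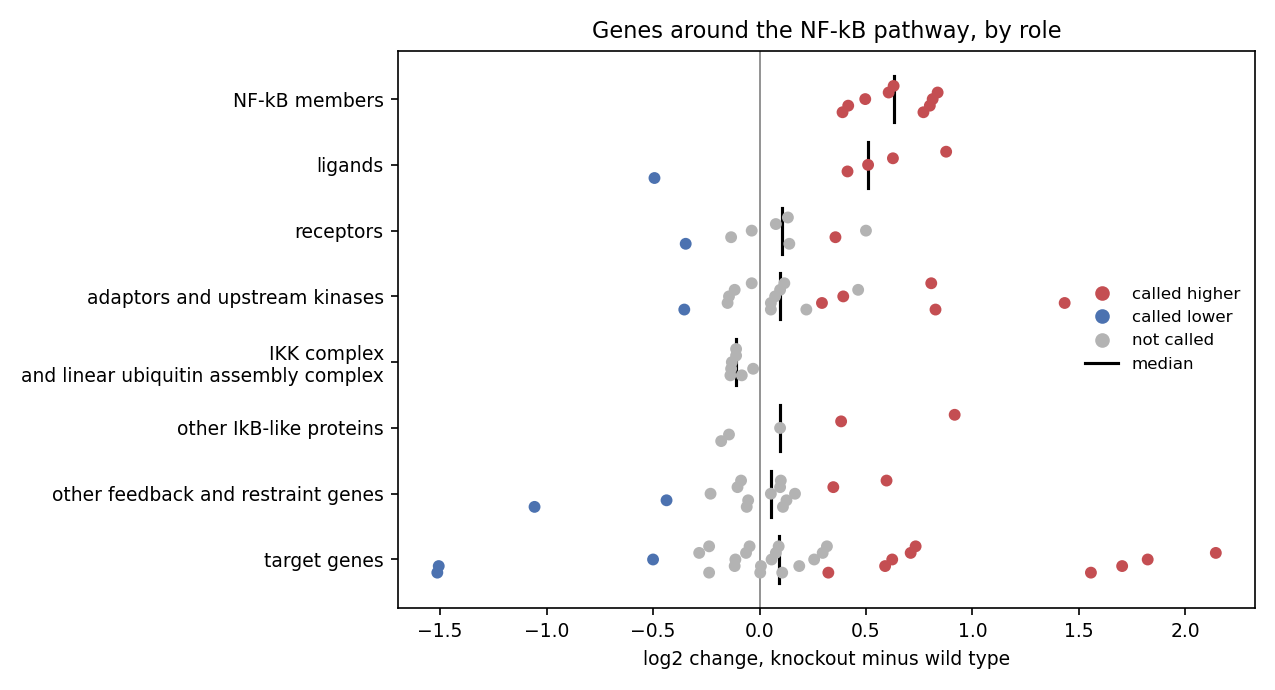
Log2 change, knockout minus wild type (horizontal axis), of each tested gene, with the 9 members in the top row and the other pathway genes below, by role. Points are red where called higher, blue where called lower and grey where not called, and black lines are medians. The genes of the IKK and linear ubiquitin list, Ikbke and Tbk1 included, lie close together between -0.14 and -0.03. The targets spread from -1.51 to 2.14.

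Genes with the most similar values across arrays were listed for Nfkbia, Tnfaip3 and Nfkbiz. Likeness was the root mean square difference, over the 6 arrays, between the deviations of 2 genes from their own means, among 13674 tested genes. The closest to Nfkbia were Slc7a8, an amino acid transporter gene (0.01), Taf4b, a TFIID subunit gene (0.04), and Irak2 (0.05). Closest to Tnfaip3 were Chka, Cpd and Slc15a2 (0.02 each), and to Nfkbiz Cpd and Chka (0.03 each) and Lilr4b (0.04). Among the members the closest pair was Nfkbiz and Tnfaip3 (0.03). These are descriptions over 6 arrays in 2 groups, in which any gene that rises by a like amount with tight replicates scores close.

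Cdk19 was lower on all knockout arrays, at 12.38 to 12.49 in wild type and 11.42 to 11.51 in the knockout. Whether its probes lie in the deleted part is not known from the labels. Of 15 tested HSC and early progenitor markers, 5 fell (Kit, Hlf, Meis1, Robo4 and Flt3) and 0 rose, and their summed log2 levels went from 142.35-142.83 to 138.60-139.42. Kit, Cd34, Procr and Slamf1 were at 14.53, 15.97, 7.29 and 5.78 in wild type. Flt3 and Cd48, better known from early progenitors than from HSCs, were at 14.51 and 11.30. Hoxb5 was too dim to test, and Ly6a was not analysed here. Over all clusters tested, 2.96% were called higher and 4.84% lower, and among those at least as bright as the dimmest member 6.21% and 10.1%. Markers of other cell types are given as counts of those tested and as log2 levels summed over all measured genes of the list. Of 11 granulocyte markers 2 rose and 0 fell, and the sum went from 92.90-94.19 on wild-type arrays to 94.45-96.24 on knockout arrays, with Mmp8 too dim. Of 10 monocyte and macrophage markers 1 rose, Cd14 by 0.79, and 0 fell (sums 70.15-71.63 and 71.12-72.16), with C1qa and C1qb too dim to test. Of 5 mast cell and basophil markers 2 rose (43.81-44.63 and 44.94-45.82), with Fcer1a, Tpsb2 and Cma1 too dim. These were Cpa3 (0.41) and Gzmb (0.83), of which Gzmb is also a gene of cytotoxic lymphocytes. Mcpt8 (-0.13), Ms4a2 (0.04) and Prss34 (-0.31) were not called. Of 6 megakaryocyte markers 3 rose (43.00-43.17 and 45.48-46.13), with Ppbp too dim. Of 6 dendritic cell markers 2 rose and 1 fell (54.14-54.20 and 54.11-54.60), with Zbtb46 and Xcr1 too dim. The 1 that fell was Flt3, already counted among the HSC and early progenitor markers. Of 6 B cell markers 3 fell, leaving out Igll1, which had only wild-type levels above the filter limit, and Ms4a1 was too dim. The B cell sums, with both, were 47.55-47.97 and 44.52-44.71. Of 6 erythroid markers 1 fell, Car1 (44.51-45.00 and 43.74-43.93). Of 4 stromal and endothelial markers 1 fell, Pecam1 (45.32-45.44 and 44.28-44.67), with Cxcl12, Lepr, Cdh5 and Kdr too dim. By limma, 0 of 6 T and NK cell markers were called (48.47-49.25 and 49.04-49.55), with Cd3e, Cd8a and Ncr1 too dim, and 3 had an unadjusted p under 0.05. The part of these shifts in the rise of the 9 genes was not tested.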

How the data were processed

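Total RNA was extracted with Trizol, biotin-labelled and hybridised to Affymetrix arrays, per the labels' protocols. The authors deposited 1 table of log2 expression values for 65956 transcript clusters on 6 arrays. The submitters' processing notes name MAS5 alone. Background correction, summary, normalization, genome build and log base were not stated in any source used, and the values (2.04 to 19.93, array medians 4.40 to 4.48) were taken as log2. Fold sizes depend on that reading. No detection calls or batches were used here.

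Clusters with 1 symbol in the platform annotation (30604) were named, 827 of them updated by gene ID with RefSeq. Clusters whose mean level fell in the lowest 40% (limit 4.09) were left out. The genotype effect came from limma 3.58.1, run in R 4.3.3 (empirical Bayes with intensity trend, two-sided, Benjamini-Hochberg over 39543 clusters, called under 0.05), and the fit was tested on simulated data. SEs of gene changes are moderated, those of differences between genes are plain SEs from the arrays, and SDs are over 3 arrays. Pathway and marker genes used their brightest cluster. From each pathway list the text names up to 4 called genes in each direction with the smallest p, or the 2 smallest where fewer were called. Like genes were the 3 closest. Members and lists were chosen with earlier results of these data known. Promoters are from RefSeq. Tables were made with Python 3.11.15, pandas 2.3.3 and scipy 1.17.1, and plots with matplotlib 3.10.9. Alternatives were quantile normalization, a common median, other filters, no trend, a replicate block, the mean of a gene's clusters and leaving out each array.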

Additional observations from a re-analysis of the deposited data

How the results depend on the processing

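The rise of 8 of the 9 genes (all but Nfkbie) kept its direction and its call in all 13 alternative fits, with adjusted p-values up to 0.040 (Relb). Nfkbie kept its direction in all 13 and its call in 6. Its log2 change was 0.39 with arrays shifted to a common median, 0.42 with the replicate block, and 0.38 to 0.48 with 1 array left out. The same-numbered arrays of the genotypes did not deviate together (correlations -0.14, -0.10 and 0.02 across 39543 clusters). Those of different numbers had correlations from -0.13 to 0.21. The labels give no pairing, and these correlations cannot exclude one. Il1a passed the filter through its knockout arrays alone, and without it 22 pathway genes were called higher and 8 lower, a setting chosen after seeing the data. The replicate block called 8 of the 9 genes (Nfkbie at adjusted p = 0.063), 15 pathway genes higher and 6 lower, and 630 clusters higher and 1083 lower over the whole array. With 1 array left out, 8 or 9 of the 9 genes and 14 to 20 pathway genes were called higher. Pathway genes called higher numbered 18 with a common median and 17 with no filter. The brightest Irf1 cluster rose by 0.32 and its other cluster differed by -0.15, so their mean was not called (adjusted p = 0.73). The number of arrays limits the precision, and background was not measured here.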

Other observations

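Other NF-kB targets that were called higher, chosen after their values were seen, were Cd83, Lcn2, Ier3, Cxcl10 and Irf1. Cd83, a surface marker of activated antigen-presenting cells, was at 5.61, 5.14 and 5.96 in wild type and 7.52, 6.80 and 7.06 in the knockout, a log2 change of 1.56 (SE 0.25). That cluster is named as unmapped, and a second Cd83 cluster, on chromosome 13, rose by 1.10 (limma, Benjamini-Hochberg adjusted p = 0.023). The unmapped cluster did not pass (adjusted p = 0.054) when wild-type array 1 was left out, nor when knockout array 3 was (0.051). Lcn2, encoding an iron-binding protein of innate immunity, rose by 0.71, from 5.18, 5.11 and 5.13 to 5.68, 5.96 and 5.91. Ier3, a stress response gene, rose by 0.62, and did not pass when wild-type arrays 2 (0.10) and 3 (0.11) or knockout arrays 1 (0.086) and 3 (0.077) were left out in turn. The chemokine gene Cxcl10 rose by 0.59, and did not pass when wild-type arrays 1 (0.064) and 2 (0.070) or knockout array 1 (0.056) were left out in turn. Irf1, a transcription factor gene of the interferon response, rose by 0.32 and passed in 1 of 6 runs that left out 1 array, that without knockout array 2 (adjusted p 0.041 to 0.13), and in 4 of 13 alternatives.

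Birc3, encoding an inhibitor of apoptosis that is also a ubiquitin ligase of the pathway, rose by 0.39, and its relative Birc2 differed by 0.46 without passing (adjusted p = 0.060). Their values were known when they were chosen. The Birc3 call held when wild-type array 1 was left out (0.029) and lost in the other 5 runs that left out 1 array (adjusted p 0.071 to 0.14). Nfkbid, which encodes a nuclear IkB related to IkB zeta, differed by 0.10 (adjusted p = 0.52), and Cd44, another listed target, by 0.00 (adjusted p = 0.99). These were also chosen after their values were seen.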
